A study of Mus musculus with 6 samples.

Results

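The data concern 36 genes of vascular and lymphatic endothelium, the cell layer that lines blood and lymph vessels, as they were measured in cultures of mouse mammary gland stromal fibroblasts. The genes were chosen by symbol from a list of endothelial markers, with earlier results of these data known. All 36 were found among the 23337 genes of the count tables. The groups compared were 3 libraries of cpdm/cpdm (Sharpin deficient) cells (Sharpin-cpdm) and 3 of wt/wt cells (wild-type). Both came from the mammary gland of C57BL/KaLawRij mice aged 7 weeks, each library from the pooled glands of 3 mice, and both were grown in serum without passage (p0). The cpdm mutation, named for the chronic proliferative dermatitis it causes in mice, arose spontaneously and inactivates Sharpin in every cell of the animal, so endothelial cells and fibroblasts both carry it. The 6 libraries held between 13570649 and 15656196 counts in genes. Sharpin itself stood at 24.5, 25.2 and 31.2 CPM in the wild-type libraries and 10.5, 9.13 and 9.51 CPM in the mutant ones, and its fitted log2 fold change was -1.48 ± 0.12 (SE, 3 pairs; adjusted p = 0.00595, edgeR).

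Endothelial cells hold together through VE-cadherin and other junction proteins, answer to angiopoietins, sphingosine-1-phosphate, apelin and vascular endothelial growth factors, and keep their identity through ETS-family, SOXF and, in lymph vessels, PROX1 transcription factors. Arteries, capillaries, veins and lymph vessels each add genes of their own. Collagenase digests of the mammary gland release vessel cells along with fibroblasts, and the labels describe no sort against them. In RNA from such a mixed culture, fewer endothelial cells and less RNA per endothelial cell cannot be told apart.

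All 36 genes were detected in all 6 libraries, and all 36 passed the low-count filter. With same-numbered libraries compared as pairs, 25 of the 36 fell in Sharpin-cpdm cultures and 0 rose, at an adjusted p under 0.05 in edgeR's quasi-likelihood test. Over all 13442 tested genes, 2.11% were lower and 0.394% higher by the same rule. These shares are given for scale, because the 36 were not chosen blind to these data. The fitted log2 fold change was below 0 for all 36, with a median of -0.81 beside -0.00168 over all tested genes, where 50.5% were below 0. Within the pairs, 33 of the 36 genes were lower in the mutant library of all 3 pairs, against 18.5% of all tested genes. The 3 exceptions were Eng in pair 1, Prox1 in pair 2 and Mmrn1 in pair 3.

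These calls rest on the pairing. What a replicate number marks is not explained in the labels, and same-numbered libraries deviated together. Without the pairs, edgeR's test called 0 of the 36, with 20 at an unadjusted p under 0.05 beside 307 of all 13442 genes. DESeq2 called 1 without the pairs (Exoc3l), with 26 at an unadjusted p under 0.05 beside 332 of all 13442. The CPM of the groups (a gene's counts scaled to its library's total gene counts) did not overlap, with the mutant lower, for 7 of the 36: Tek, Egfl7, Robo4, Gja4, Gja5, Icam2 and Exoc3l. That share was 2.59% over all tested genes. The count also depended on which pairs entered: 29 were called without pair 1, 10 without pair 2 and 0 without pair 3, where 28 of the 35 tested had an unadjusted p under 0.05, beside 1538 of all 13465 genes, and the smallest adjusted p was 0.0522. In what follows, a gene is said to have fallen where edgeR's test with all 3 pairs called it, and values of 3 libraries are in the order 1 to 3.

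Summed over the 36 genes, the level was 1179, 1848 and 2147 CPM in wild type against 881, 1066 and 1312 CPM in Sharpin-cpdm. Within pairs 1, 2 and 3 the log2 ratio of the sums was -0.42, -0.79 and -0.71, and the 95% intervals from counting error alone were -0.45 to -0.39, -0.82 to -0.76 and -0.74 to -0.68. Pair 1 differed less than the other pairs, by more than counting error, and the lowest wild-type library lay below the highest Sharpin-cpdm library. The labelled cell type was checked on 12 fibroblast markers, all detected, which summed to between 55310 and 69930 CPM in Sharpin-cpdm and between 58810 and 80640 CPM in wild type.

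The 4 fallen genes with the smallest p that have an entry in the RefSeq promoter table (GRCm38.p6; 17 of the 36 matched) were Tek, Cldn5, Robo4 and Tie1. Their windows run from 250 bases before to 50 after the annotated start and are written 5′ to 3′ on the gene's strand. The genes were picked by their p, and whether they move together was not tested. Capitals mark AGGAAG on either strand, letters of an ETS-type site.
Tek (chr4:94739039-94739338, plus strand): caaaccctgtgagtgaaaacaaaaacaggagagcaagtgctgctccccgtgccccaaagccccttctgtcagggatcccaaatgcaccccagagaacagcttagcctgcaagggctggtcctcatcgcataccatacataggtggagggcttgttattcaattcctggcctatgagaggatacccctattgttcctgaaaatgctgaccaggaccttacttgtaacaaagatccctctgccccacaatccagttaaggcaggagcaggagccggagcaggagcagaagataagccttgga
Cldn5 (chr16:18776597-18776896, plus strand): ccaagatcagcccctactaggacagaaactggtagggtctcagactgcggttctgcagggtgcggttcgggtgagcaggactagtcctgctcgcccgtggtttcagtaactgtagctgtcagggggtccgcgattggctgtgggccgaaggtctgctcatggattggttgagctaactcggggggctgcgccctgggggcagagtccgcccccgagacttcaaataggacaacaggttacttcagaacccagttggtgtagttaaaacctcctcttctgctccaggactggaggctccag
Robo4 (chr9:37401722-37402021, plus strand): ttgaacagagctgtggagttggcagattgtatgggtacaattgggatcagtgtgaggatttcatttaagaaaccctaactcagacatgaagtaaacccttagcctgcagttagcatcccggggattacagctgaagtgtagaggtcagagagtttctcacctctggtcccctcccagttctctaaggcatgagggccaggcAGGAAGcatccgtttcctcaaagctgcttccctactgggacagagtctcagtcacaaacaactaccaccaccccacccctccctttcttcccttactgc
Tie1 (chr4:118489800-118490099, minus strand): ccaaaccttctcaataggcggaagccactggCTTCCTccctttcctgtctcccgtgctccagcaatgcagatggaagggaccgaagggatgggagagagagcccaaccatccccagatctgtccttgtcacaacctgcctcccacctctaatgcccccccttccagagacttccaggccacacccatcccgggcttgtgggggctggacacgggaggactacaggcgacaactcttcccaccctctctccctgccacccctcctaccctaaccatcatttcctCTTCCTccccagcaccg
AGGAAG, searched on both strands in the first listed window of each gene, was in 9 of the 17 windows (52.9%) and in 35.1% of all 27025. CCGGAA, another ETS-type form, was in 0 of the 17 and in 15.2% of all. ACAAT, a SOX-type core, was in 6 of 17 and 31.6% of all, and AGATAA, letters recognised by factors of the GATA family, in 3 of 17 and 11.4% of all. The Robo4 window held 1 match to AGGAAG and the Tie1 window 2, while those of Tek and Cldn5 held 0; the Tek and Robo4 windows each held 2 matches to ACAAT, and the Tek window 1 to AGATAA. These are matches of letters in short windows and show no binding.

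Levels can be set against each other between genes only per length of transcript. Per kilobase of annotated exon, averaged over the 6 libraries, Cdh5 stood highest at 46.6 CPM per kilobase (chr8:104101625-104144511 of mm10, plus strand), followed by Eng at 38.2, Apln at 30.5, Pecam1 at 22.8 (chr11:106654217-106750628, minus strand) and Cd93 at 20.6. The 3 lowest were the lymphatic genes Lyve1, Mmrn1 and Prox1, at 0.593, 0.450 and 0.360 CPM per kilobase.

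**Figure D1:**
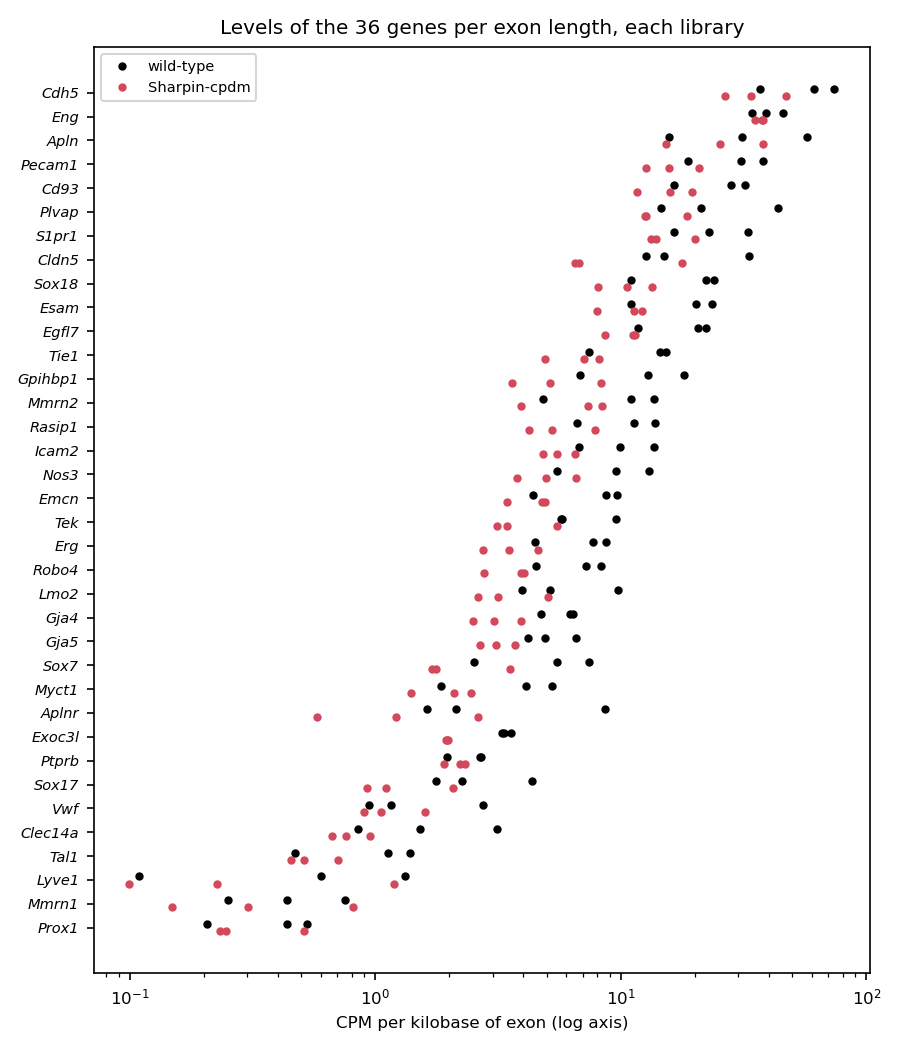
Each point is one library's level of one gene in CPM per kilobase of exon on a log axis, with wild-type in black and Sharpin-cpdm in red; genes are ordered by their mean. Red and black points overlap for 29 of the 36 genes and are apart for 7, and Lyve1, Mmrn1 and Prox1 are at the bottom.

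Of 8 junction and surface adhesion genes, 7 fell and 0 rose, with fitted log2 fold changes between -1.01 and -0.68. Pecam1 encodes CD31, an adhesion molecule at the contacts between endothelial cells that leukocytes and platelets also carry, and stood at 117, 192 and 236 CPM in the wild-type libraries and 79.1, 97.5 and 129 CPM in the mutant ones. Cdh5 encodes VE-cadherin, the adherens junction protein of endothelium, and stood at 156, 258 and 311 CPM in wild type against 111, 142 and 198 CPM in Sharpin-cpdm. Each mutant library was lower than its same-numbered wild-type library, but mutant library 3 lay above wild-type library 1 for both genes. Their log2 fold changes were -0.82 ± 0.08 for Pecam1 (SE, 3 pairs, as for all fold changes below; adjusted p = 0.00920, edgeR) and -0.68 ± 0.07 for Cdh5 (adjusted p = 0.0108, edgeR).

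Cldn5, the claudin of endothelial tight junctions, stood at 17.9, 21.2 and 47.0 CPM in the wild-type libraries and 9.58, 9.21 and 25.2 CPM in the mutant ones, with library 3 the highest in both groups, and fell by 50.2% (-1.01 ± 0.09, adjusted p = 0.00617, edgeR). Esam, an immunoglobulin-like adhesion molecule of the same junctions, stood at 31.6, 57.9 and 67.4 CPM in wild type against 23.0, 32.4 and 34.9 CPM in Sharpin-cpdm (-0.78 ± 0.10, adjusted p = 0.0202, edgeR). For Esam, mutant libraries 2 and 3 overlapped only with wild-type library 1. Icam2, a ligand of leukocyte integrins, stood at 12.8, 18.9 and 25.9 CPM in the wild-type libraries and 9.21, 10.4 and 12.4 CPM in the mutant ones, with no overlap between the groups (-0.83 ± 0.13, adjusted p = 0.0334, edgeR). Emcn, endomucin, is a sialomucin of capillary and venous endothelium and stood at 23.8, 47.1 and 52.2 CPM in wild type against 18.6, 26.6 and 25.8 CPM in Sharpin-cpdm (-0.77 ± 0.13, adjusted p = 0.0370, edgeR). Its log2 ratio was nearest to 0 in pair 1 and farthest in pair 3.

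**Figure D2:**
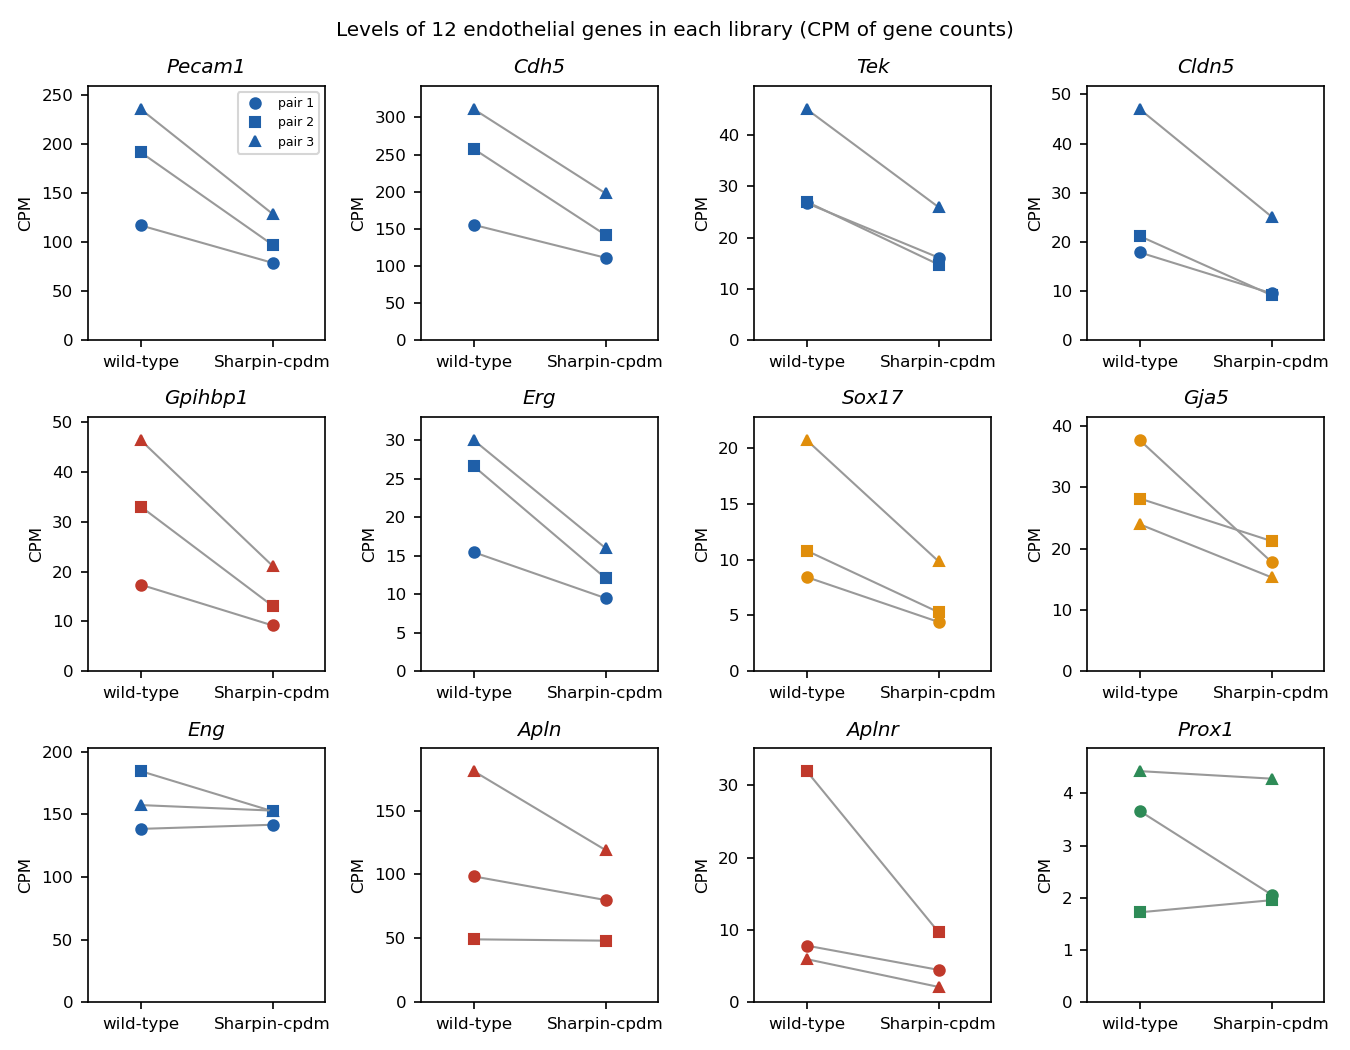
CPM of 12 of the genes in the wild-type and Sharpin-cpdm library of each pair, joined by a line, with circles for pair 1, squares for pair 2 and triangles for pair 3; each axis starts at 0. Lines fall in all 3 pairs for genes such as Pecam1, Cdh5, Tek and Cldn5, whereas Eng is nearly level and Prox1 crosses.

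Of 11 receptors and ligands, 6 fell and 0 rose. Tek encodes TIE2, the receptor of the angiopoietins, and Tie1 its co-receptor. Tek stood at 26.8, 27.0 and 45.1 CPM in the wild-type libraries and 16.1, 14.8 and 26.0 CPM in the mutant ones, without overlap, and had a log2 fold change of -0.81 ± 0.07 (adjusted p = 0.00595, edgeR). Tie1 stood at 36.4, 75 and 70.6 CPM in wild type against 24.1, 34.7 and 40.2 CPM in Sharpin-cpdm and had -0.87 ± 0.09 (adjusted p = 0.0110, edgeR). Ptprb, the phosphatase VE-PTP that acts on TIE2 and VE-cadherin, differed far less: it stood at 26.0, 35.6 and 35.9 CPM in the wild-type libraries and 25.4, 30.9 and 29.4 CPM in the mutant ones, with -0.19 ± 0.07, and did not pass (adjusted p = 0.268, edgeR). The intervals of Tek (-0.98 to -0.65) and Ptprb (-0.37 to -0.01) did not overlap, although their difference was not itself tested.

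Robo4, a guidance receptor of endothelium, and Cd93 and Clec14a, related C-type lectin receptors that bind the matrix protein multimerin 2, were lower in the mutant in all 3 pairs. Robo4 stood at 23.8, 38.3 and 44.1 CPM in wild type against 14.7, 21.3 and 20.8 CPM in Sharpin-cpdm, without overlap (-0.90 ± 0.10, adjusted p = 0.0110, edgeR). Cd93 was among the most abundant, at 110, 188 and 214 CPM in the wild-type libraries and 77.7, 106 and 130 CPM in the mutant ones (-0.70 ± 0.07, adjusted p = 0.00920, edgeR). Clec14a stood at 3.88, 6.96 and 14.3 CPM in wild type against 3.46, 3.04 and 4.35 CPM in Sharpin-cpdm and did not pass, with -1.14 ± 0.29 (adjusted p = 0.118, edgeR). Its log2 ratio ran from -0.17 in pair 1 to -1.72 in pair 3. S1pr1, the sphingosine-1-phosphate receptor that stabilises vessel junctions, stood at 49.9, 69.4 and 100 CPM in the wild-type libraries and 40.5, 42.3 and 61.3 CPM in the mutant ones and fell by 33.9% (-0.60 ± 0.09, adjusted p = 0.0288, edgeR).

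Apelin and its receptor differed in their order over the libraries. Aplnr, the receptor, had the largest fitted fall of the 36, -1.39 ± 0.19 (adjusted p = 0.0234, edgeR), at 7.84, 31.9 and 5.97 CPM in wild type against 4.50, 9.71 and 2.14 CPM in Sharpin-cpdm. Apln, the ligand, is made by sprouting endothelium and by other cells and stood at 98.5, 49.3 and 181 CPM in the wild-type libraries and 80.0, 48.3 and 119 CPM in the mutant ones. Pair 2 held the highest receptor level and the lowest ligand level in both genotypes. The log2 fold change of Apln was -0.34 ± 0.11 and did not pass (adjusted p = 0.190, edgeR), with -0.03 in pair 2 and -0.60 in pair 3.

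Eng encodes endoglin, a co-receptor for BMP9 and TGF-beta that fibroblasts also make. Its level was 138, 185 and 158 CPM in wild type against 142, 153 and 153 CPM in Sharpin-cpdm, so the groups overlapped and pair 1 was slightly higher in the mutant. The log2 fold change was -0.11 ± 0.06 with a 95% interval of -0.26 to 0.04 (adjusted p = 0.447, edgeR), the smallest of the 36 in size. Acvrl1, the type I receptor ALK1 that works with endoglin in endothelium, is not among the 36 and was looked up after the values were seen. It stood at 72.9, 83.7 and 91.1 CPM in the wild-type libraries and 76.0, 83.3 and 98.9 CPM in the mutant ones, with 0.05 ± 0.05 (adjusted p = 0.664, edgeR).

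Transcription factors of endothelium fell in 5 of 7 cases, and 0 rose. Erg, the ETS factor that maintains endothelial identity, stood at 15.5, 26.6 and 30.0 CPM in wild type against 9.51, 12.1 and 16.0 CPM in Sharpin-cpdm and had -0.94 ± 0.10 (adjusted p = 0.0110, edgeR). The SOXF factors Sox7, Sox17 and Sox18 all fell. Sox7 stood at 8.28, 18.1 and 24.4 CPM in the wild-type libraries and 5.60, 5.80 and 11.7 CPM in the mutant ones (-1.13 ± 0.19, adjusted p = 0.0382, edgeR), and Sox18 at 17.9, 38.9 and 36.1 CPM in wild type against 13.1, 21.6 and 17.1 CPM in Sharpin-cpdm (-0.83 ± 0.12, adjusted p = 0.0287, edgeR). For both, pair 1 had the log2 ratio nearest to 0 and the groups overlapped through wild-type library 1.

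Lmo2 and Tal1 encode partners in one transcription complex of endothelial and blood-forming cells. Lmo2 stood at 8.58, 11.2 and 21.1 CPM in the wild-type libraries and 5.67, 6.81 and 10.9 CPM in the mutant ones and fell (-0.79 ± 0.12, adjusted p = 0.0310, edgeR). Tal1, at 2.05, 4.92 and 6.04 CPM in wild type against 1.99, 2.25 and 3.08 CPM in Sharpin-cpdm, had a fitted value of the same size, -0.81 ± 0.24, but did not pass (adjusted p = 0.168, edgeR); its library counts lay between 27 and 86. Tal1 was nearly level in pair 1 (-0.04) and lower in pairs 2 and 3 (-1.13 and -0.97).

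Secreted, matrix-bound and capillary surface genes fell in 4 of 7 cases, and 0 rose. Egfl7, a secreted protein of the endothelial matrix, stood at 42.0, 73.5 and 79.6 CPM in the wild-type libraries and 30.8, 41.0 and 40.1 CPM in the mutant ones, without overlap (-0.79 ± 0.11, adjusted p = 0.0220, edgeR). Gpihbp1 carries lipoprotein lipase to the capillary surface and stood at 17.4, 33.0 and 46.3 CPM in wild type against 9.21, 13.1 and 21.1 CPM in Sharpin-cpdm. It fell by 55.1% (-1.15 ± 0.09, adjusted p = 0.00595, edgeR), and library 3 was the highest in both groups. Nos3, endothelial nitric oxide synthase, stood at 22.8, 39.4 and 53.8 CPM in the wild-type libraries and 15.6, 20.4 and 27.1 CPM in the mutant ones (-0.86 ± 0.10, adjusted p = 0.0138, edgeR).

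Mmrn2, multimerin 2, stood at 19.1, 54.2 and 43.7 CPM in wild type against 15.6, 33.4 and 29.1 CPM in Sharpin-cpdm, with library 1 the lowest in both groups, and fell by 32.4% (-0.56 ± 0.09, adjusted p = 0.0288, edgeR). Plvap forms the diaphragms of fenestrated capillaries and stood at 29.0, 86.7 and 42.0 CPM in the wild-type libraries and 25.1, 36.9 and 24.8 CPM in the mutant ones. Vwf, von Willebrand factor, is stored by endothelium and platelets and stood at 15.2, 44.0 and 18.6 CPM in wild type against 14.4, 25.6 and 17.0 CPM in Sharpin-cpdm. Both were highest in pair 2 in both genotypes, and neither passed in edgeR's test: Plvap had -0.78 ± 0.17 (adjusted p = 0.0801, edgeR) and Vwf -0.38 ± 0.14 (adjusted p = 0.247, edgeR). Plvap passed with DESeq2 and the pairs as a term (adjusted p = 0.00312).

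The remaining 3 pan-endothelial genes all fell. Rasip1, a RAS-interacting protein needed for vessel lumens, stood at 21.2, 36.1 and 44.2 CPM in the wild-type libraries and 13.5, 16.7 and 25.2 CPM in the mutant ones (-0.88 ± 0.09, adjusted p = 0.0110, edgeR). Myct1, a membrane protein of endothelium, stood at 5.28, 14.9 and 11.7 CPM in wild type against 3.98, 6.96 and 5.96 CPM in Sharpin-cpdm and only just passed (-0.89 ± 0.16, adjusted p = 0.0488, edgeR); with genes required to reach 1 CPM in 3 libraries it was no longer called (adjusted p = 0.0501). Exoc3l, a relative of an exocyst subunit, stood at 12.4, 12.1 and 13.1 CPM in the wild-type libraries and 7.29, 7.25 and 7.16 CPM in the mutant ones (-0.81 ± 0.11, adjusted p = 0.0234, edgeR). Its highest library was 1.08 times its lowest in wild type and 1.02 times in Sharpin-cpdm, and DESeq2 called it without the pairs (adjusted p = 0.00547).

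The genes were also set side by side by vessel type. Of 23 pan-endothelial genes 19 fell. Of 7 genes grouped here as blood capillary and vein (Emcn, Gpihbp1, Nos3, Vwf, Plvap, Aplnr and Apln) 4 fell. Of 3 arterial genes 2 fell, and of 3 lymphatic genes 0 fell, with 0 risen in each class. The median log2 fold changes were -0.81, -0.78, -0.89 and -0.29 in that order. Differences between the classes were not tested.

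The arterial genes were lower in every pair. Gja4 and Gja5 encode connexins 37 and 40, the gap junction proteins of arterial endothelium. Gja4 stood at 7.99, 10.7 and 10.5 CPM in wild type against 4.2, 5.15 and 6.63 CPM in Sharpin-cpdm, without overlap (-0.89 ± 0.13, adjusted p = 0.0279, edgeR). Gja5 stood at 37.7, 28.2 and 24.0 CPM in the wild-type libraries and 17.8, 21.2 and 15.3 CPM in the mutant ones, also without overlap (-0.72 ± 0.13), and lay just outside the threshold (adjusted p = 0.05002, edgeR). It passed with limma-voom (adjusted p = 0.0481) and with DESeq2 (adjusted p = 0.00526), both with the pairs as a term.

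Sox17, the SOXF factor that specifies arteries, stood at 8.43, 10.8 and 20.7 CPM in wild type against 4.42, 5.29 and 9.84 CPM in Sharpin-cpdm and fell (-1.03 ± 0.11, adjusted p = 0.0110, edgeR). Summed over the 3 arterial genes, the level was 54.1, 49.7 and 55.1 CPM in the wild-type libraries and 26.4, 31.7 and 31.8 CPM in the mutant ones. This was the one class of the 4 whose sums did not overlap between the groups. Gja5, which did not pass and whose exons another gene overlaps, was the largest part of that sum in every library. Gja5 and Gja4 each separated the groups, and Sox17 did not. The summed levels of 11 further arterial genes overlapped, at 665 to 1054 CPM in Sharpin-cpdm and 766 to 1127 CPM in wild type. In wild type, Gja5 was highest in library 1 and Sox17 in library 3. Relative to the summed counts of the 23 pan-endothelial genes, arterial counts came to 6.00, 3.40 and 3.28% in wild type and 3.87, 3.72 and 3.08% in Sharpin-cpdm. That share was lower in the mutant in pairs 1 and 3 and higher in pair 2.

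**Figure D3:**
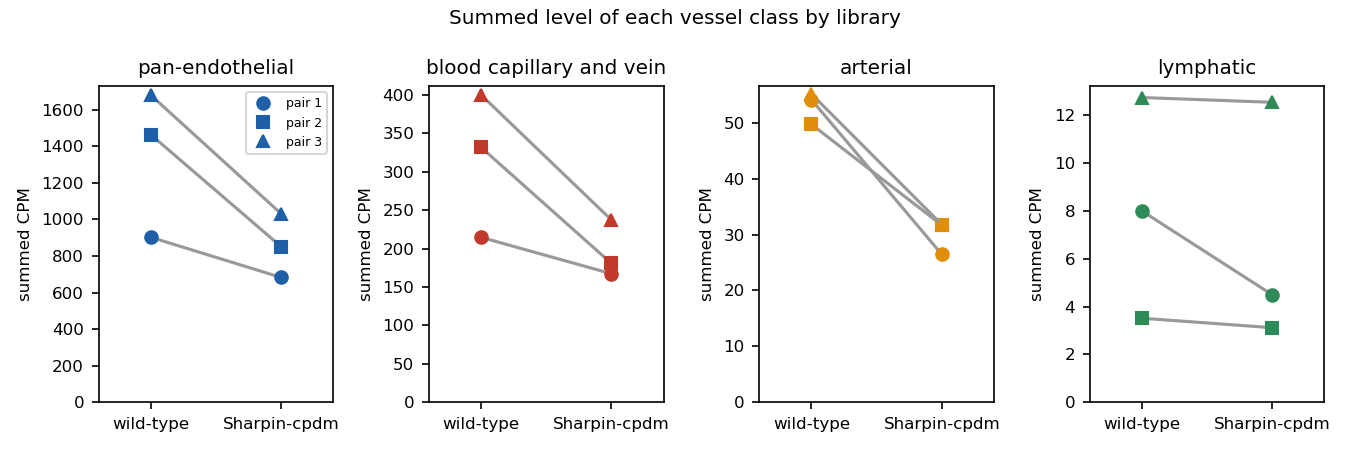
Summed CPM of each vessel class in the wild-type and Sharpin-cpdm library of pairs 1 (circles), 2 (squares) and 3 (triangles), each axis starting at 0. Arterial sums, of which Gja5 is the largest part in every library, are at 49.7 CPM and above in wild type and 31.8 CPM and below in Sharpin-cpdm. Lymphatic sums are nearly level in pairs 2 and 3.

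Lymphatic genes were scarce, and their fold changes were poorly determined. Prox1, the factor that sets lymphatic identity, stood at 3.67, 1.73 and 4.43 CPM in wild type against 2.06, 1.96 and 4.28 CPM in Sharpin-cpdm. Lyve1, a hyaluronan receptor of lymphatic endothelium and some macrophages, stood at 1.76, 0.319 and 3.87 CPM in the wild-type libraries and 0.663, 0.290 and 3.48 CPM in the mutant ones, on counts between 4 and 55. Mmrn1, multimerin 1, which lymphatic endothelium and platelets make, stood at 2.57, 1.47 and 4.43 CPM in wild type against 1.77, 0.870 and 4.75 CPM in Sharpin-cpdm. All 3 were lowest in pair 2 in both genotypes.

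None of the 3 passed in edgeR's test: Prox1 had -0.25 ± 0.24 (adjusted p = 0.651), Lyve1 -0.52 ± 0.32 (adjusted p = 0.473) and Mmrn1 -0.29 ± 0.24 (adjusted p = 0.590). Of the same 3, 0 had an unadjusted p under 0.05. Their 95% intervals (-0.84 to 0.33 for Prox1, -1.30 to 0.26 for Lyve1 and -0.87 to 0.28 for Mmrn1) held 0 and also held the median of the 36 genes, so that at this depth they could be told apart neither from no change nor from the typical fall. Pair 1 had lower levels of all 3 in the mutant, with a median log2 ratio of -0.83, against -0.14 in pair 2 and -0.05 in pair 3. In pair 3, the best counted, the log2 ratio of the summed lymphatic levels was -0.02 with a counting interval of -0.33 to 0.28, while the pan-endothelial sum had -0.70 with -0.73 to -0.67. In pair 1 the order was the other way, at -0.83 (-1.31 to -0.36) and -0.40 (-0.44 to -0.36). Lymphatic counts came to 0.885, 0.240 and 0.758% of pan-endothelial counts in wild type and to 0.658, 0.366 and 1.21% in Sharpin-cpdm, so that the share was lower in the mutant in pair 1 and higher in pairs 2 and 3. Without pair 1 the fitted value of Prox1 was 0.011, above 0.

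**Figure D4:**
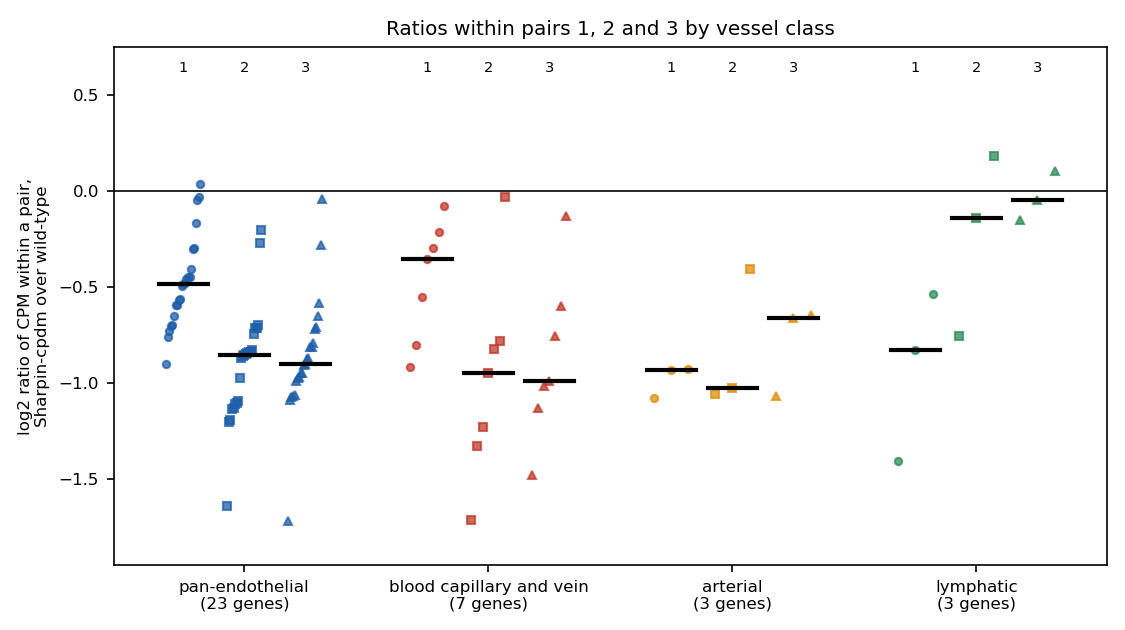
Log2 ratio of CPM, Sharpin-cpdm over wild-type, of each gene within pairs 1, 2 and 3 (left to right in each class), with black bars at the median of a class in a pair. Medians of the pan-endothelial genes are -0.48, -0.86 and -0.90, and those of the lymphatic genes -0.83, -0.14 and -0.05.

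Whether the genes share a single fold was described by setting each fitted interval against the median of the 36, -0.81. The 95% interval held that median for 29 of the 36 genes and held 0 for 4 (Eng, Prox1, Lyve1 and Mmrn1). For 5 genes the interval lay wholly nearer to 0 than the median: Eng, Ptprb, Apln, Vwf and Mmrn2. For 2 it lay wholly beyond, Gpihbp1 (-1.38 to -0.93) and Aplnr (-1.85 to -0.94). Most of the intervals thus held the median, and those of these 7 did not. The median comes from the same 36 genes, and the 29 include Prox1, Lyve1 and Mmrn1, whose intervals also held 0. The intervals are not adjusted for the number of genes, and without the block 34 of the 36 held the median of that fit. The counts therefore do not decide whether a single fold is shared.

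Counting error alone gives narrower intervals within a pair. The median ratio of the 36 genes was -0.54 in pair 1, -0.85 in pair 2 and -0.87 in pair 3, and the exact binomial 95% interval of a gene held its pair's median for 27, 22 and 21 of the 36 genes. The intervals of the other genes did not hold their pair's median, some of them narrowly. These intervals are not adjusted for the number of genes, so counting error alone can make some miss, and the median comes from the same genes. The examples given here were picked for their size. In pair 2, Aplnr had -1.72, Sox7 -1.64 and Plvap -1.23, against -0.03 for Apln and -0.20 for Ptprb. In pair 3, Clec14a had -1.72 and Aplnr -1.48, against -0.04 for Eng and -0.13 for Vwf.

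**Figure D5:**
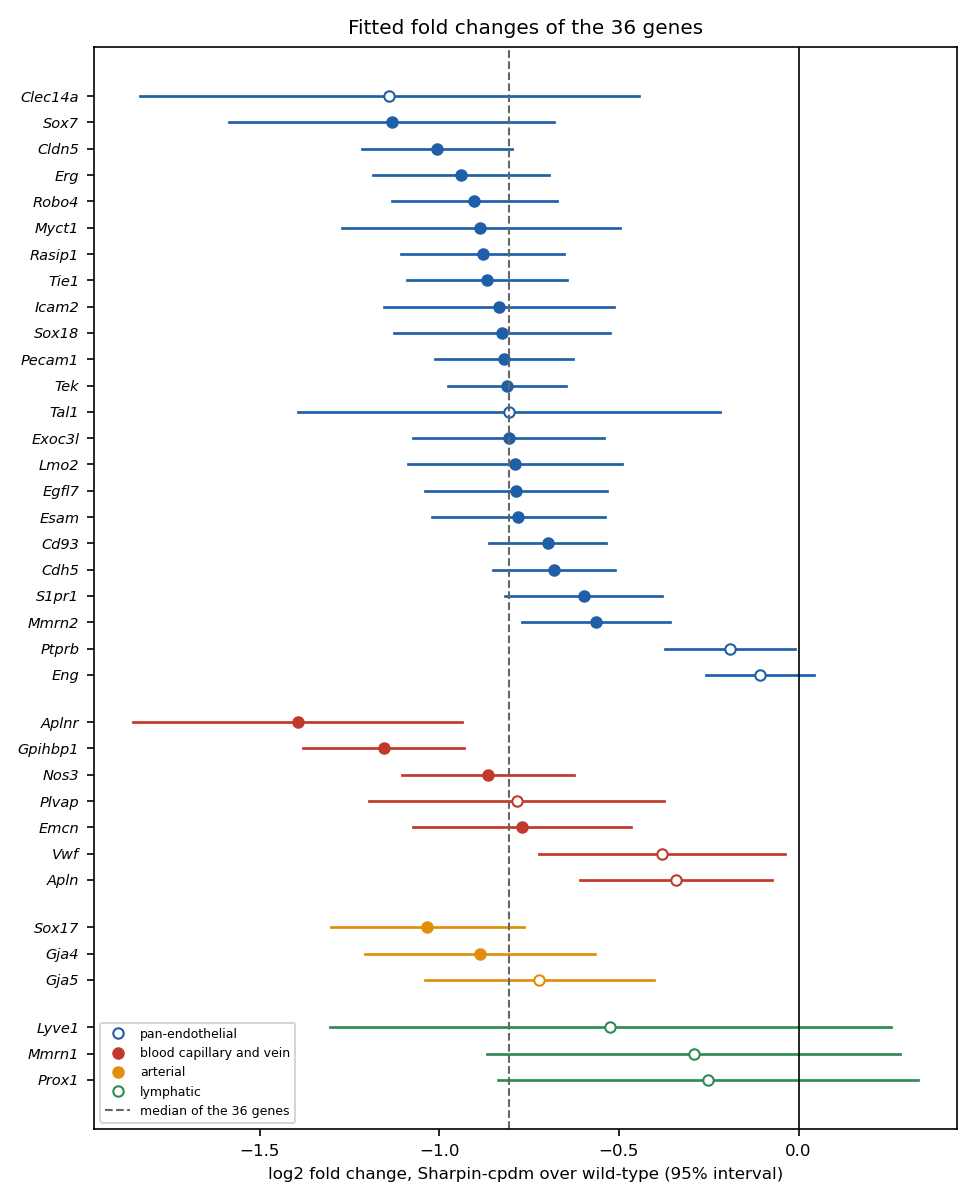
Fitted log2 fold change of each of the 36 genes with its 95% interval, by vessel class; filled circles passed in edgeR's test with the pairs, open circles did not, and the dashed line is the median of the 36. All circles lie below 0, most intervals cross the dashed line, and those of Eng, Ptprb, Apln, Vwf and Mmrn2 stay on the side of 0.

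The libraries were made with a kit that does not mark strand, so reads from overlapping genes cannot be told apart by strand. Another annotated gene overlaps the exons of 8 of the 36 genes, 5 of them among the fallen: Fpgs overlaps Eng, Gpr89 overlaps Gja5, Atg9b overlaps Nos3, Agpat2 overlaps Egfl7, Izumo1 overlaps Rasip1, and antisense or unnamed models overlap Prox1, Exoc3l and Sox17. The values of these 8 are uncertain to that extent.

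Other endothelial genes moved the same way in part. Of a further 40 such genes, 36 were tested, 14 fell and 0 rose, and the median log2 fold change was -0.55. The 3 receptors of vascular endothelial growth factors were among the fallen: Kdr, which encodes VEGFR2, had -0.57 ± 0.06 (adjusted p = 0.0110, edgeR), Flt1 (VEGFR1) -0.72 ± 0.07 (adjusted p = 0.00925, edgeR) and Flt4 (VEGFR3, typical of lymphatic endothelium and also present on sprouting blood vessels) -0.50 ± 0.09 (adjusted p = 0.0436, edgeR). Kdr stood at 47.4, 54.2 and 70.2 CPM in the wild-type libraries and 33.7, 32.8 and 50.7 CPM in the mutant ones, Flt1 at 35.1, 54.0 and 50.1 CPM in wild type against 22.2, 29.0 and 33.5 CPM in Sharpin-cpdm and Flt4 at 18.6, 29.0 and 28.9 CPM in the wild-type libraries and 14.7, 18.3 and 21.6 CPM in the mutant ones. Flt4 fell where the 3 lymphatic genes among the 36 did not pass, although the difference was not tested. By smallest p, the adhesion GPCR gene Gpr116, the sialomucin gene Cd34, Bcl6b, Dll4 and Notch4 led the list, at -0.83 ± 0.06, -0.92 ± 0.07, -0.77 ± 0.06, -0.79 ± 0.07 and -0.71 ± 0.07. Cd34 is also carried by stromal fibroblasts. The fitted value was below 0 for 31 of the 36 tested. Above 0, and not called, were Heg1 (0.19 ± 0.06), Ecscr (0.13 ± 0.09), Aqp1 (0.12 ± 0.07), Acvrl1 (0.05 ± 0.05) and Ephb4 (0.04 ± 0.05), named after their values were seen.

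Of 11 further arterial genes, 10 were tested and 6 fell, 0 rose, with a median of -0.45. They were the chemokine receptor gene Cxcr4 (-1.02 ± 0.07), the Notch ligand genes Dll4 and Jag2 (-0.79 ± 0.07 and -0.79 ± 0.13), the receptor gene Notch1 (-0.38 ± 0.05), Sema3g (-0.76 ± 0.11) and the Notch target Hey1 (-0.52 ± 0.09). Dll4 and Hey1 are in both lists. The fitted value was below 0 for 7 of the 10 tested. Above 0, and not called, were Hey2 (0.25 ± 0.22), Unc5b (0.10 ± 0.05) and Jag1 (0.05 ± 0.05), named after their values were seen. Of 10 further lymphatic genes, 9 were tested, Maf (-0.53 ± 0.08) and Flt4 fell and 0 rose, and the median was -0.01. Foxc2, a transcription factor of lymphatic valves that was picked after its values were seen, was higher in the mutant in all 3 pairs, at 5.06, 14.2 and 1.97 CPM in wild type against 9.43, 21.0 and 4.68 CPM in Sharpin-cpdm. It lay just outside the threshold (0.81 ± 0.15, adjusted p = 0.05006, edgeR). Reln and Nr2f2, picked likewise, had 0.40 ± 0.15 and 0.18 ± 0.05 and did not pass (adjusted p = 0.258 and 0.133, edgeR). Several of the 10, Pdpn and Nrp2 among them, are also made by fibroblasts, and Ccl21a, a chemokine of lymphatic endothelium, had 0 counts in every library, which allows up to 3 counts per library.

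Ligands and partners of the 36 genes mostly did not pass. Of 31 tested, 5 fell and 0 rose, and the median was -0.06. The angiopoietin genes Angpt1 and Angpt2, which encode ligands of TIE2 and were looked up after the values were seen, had 0.54 ± 0.15 and -0.50 ± 0.10 (adjusted p = 0.135 and 0.0735, edgeR). Fallen were Figf, which encodes VEGF-D (-1.27 ± 0.06), the co-receptor gene Tgfbr3 (-0.62 ± 0.04), Lpl, the lipase that GPIHBP1 binds (-0.88 ± 0.12), Cav1, caveolin 1 (-0.34 ± 0.05), and Slit3, a ligand of ROBO receptors (-0.31 ± 0.05). Figf and Lpl are also products of stromal cells, and both stood highest in pair 3 in both genotypes.

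Markers of other cell types were measured in the same libraries, and their part in the results was not tested. Of 12 pericyte and mural markers 11 were tested, 3 fell (Abcc9, Notch3 and Mcam, the last also made by endothelium) and 0 rose, with a median of -0.40 and summed levels of 1876 to 2193 CPM in Sharpin-cpdm and 2032 to 2577 CPM in wild type. Of the 12 fibroblast markers 5 fell and 0 rose, with a median of -0.37. The fallen, all genes of the matrix or its turnover, were Dpt (-1.27 ± 0.13), Dcn (-0.90 ± 0.15), Lum (-0.71 ± 0.07), Fbln1 (-0.52 ± 0.05) and Fap (-0.35 ± 0.05), and the values of Dpt and Dcn were farther from 0 than the median of the 36 endothelial genes. The collagen genes Col1a1, Col1a2 and Col3a1, which make up most of the summed level of the fibroblast markers, had -0.03 ± 0.05, 0.02 ± 0.05 and -0.40 ± 0.08 and did not pass (adjusted p = 0.826, 0.862 and 0.0598, edgeR). Of 9 adipocyte markers 2 were tested and 1 fell, Fabp4 (-0.93 ± 0.06), a fatty acid-binding protein that capillary endothelium also makes. Of the 9, 2 were at 0 in every library. The 9 summed to 29.8 to 50 CPM in Sharpin-cpdm and 47.1 to 96.4 CPM in wild type. Most of that sum was Fabp4 itself, at 22.9 to 43.6 CPM in Sharpin-cpdm and 39.7 to 82.8 CPM in wild type. Epithelial markers had 0 calls of 11 and a median of -0.34, with summed levels of 216 to 460 CPM in Sharpin-cpdm and 317 to 572 CPM in wild type.

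Among the 36, Pecam1, Icam2, Tal1, Lmo2, Vwf, Mmrn1 and Lyve1 are also expressed in some blood cells. Macrophage and leukocyte markers had 0 calls of 12 in edgeR's test, with 3 at an unadjusted p under 0.05 beside 2326 of all 13442 tested genes, and a median of 0.11. Their summed level was 85.4, 457 and 215 CPM in the wild-type libraries and 163, 399 and 275 CPM in the mutant ones, so it was higher in the mutant in pairs 1 and 3 and lower in pair 2. All 12 were detected, Ptprc, the pan-leukocyte gene, at 1.1, 4.85 and 2.74 CPM in wild type against 0.737, 2.97 and 3.61 CPM in Sharpin-cpdm. Of 9 megakaryocyte and platelet markers 4 were tested and 0 called, with 2 at an unadjusted p under 0.05, and the 9 summed to 13.1 to 31.5 CPM in Sharpin-cpdm and 15.8 to 45.2 CPM in wild type. Gp9 and Gp6 were at 0 in every library. Gata1 was at 0 in the 3 Sharpin-cpdm libraries and near 0 in wild type, at 0.0733, 0.0639 and 0.0703 CPM, and was not tested. Pf4, which macrophages can also make, stood at 5.72, 32.2 and 16.6 CPM in the wild-type libraries and 4.64, 18.3 and 11.4 CPM in the mutant ones. It was lower in the mutant in each pair and lay just outside the threshold (-0.62 ± 0.12, adjusted p = 0.0535, edgeR).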

How the data were processed

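RNA of 6 cultures was sequenced from libraries without strand marks. The authors deposited 1 table of raw read counts per gene for each library; per the submitters' processing notes, the tools were bcl2fastq 1.8.4, TopHat2 2.0.10 and HTSeq 0.5.4p3 on build mm10. Counting options are not given in the sources used here. Left out were 5 summary lines, 48.8 to 51.2% of each table, and CPM is scaled to the total of the remaining counts.

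The comparison was fitted with edgeR 4.0.16 (R 4.3.3): filterByExpr, TMM scaling, a quasi-likelihood test with the replicate number as a block, and Benjamini-Hochberg adjustment over 13442 genes at 0.05. SE is the size of the log2 fold change over the square root of F, and intervals are 95%. The code was tested on simulated data. The block was set because libraries were compared within replicate numbers and earlier results of these data had shown same-numbered libraries deviating together. The correlations of their deviations from the group means were 0.457, 0.809 and 0.737, against -0.691 to 0.00676 for other numbers. Deviations within a group cancel for each gene, so high values for the same number push those for other numbers down. The contrast is thus partly built in. The labels do not say what a number marks. With the block, p-values set the difference within pairs of these pools of mice against an estimate of how far such differences varied. edgeR draws that estimate partly from the other genes. Spread between the pools of a group enters only the fits without the block. Tables of same-group libraries all differed by more than counting noise. DESeq2 1.42.0, limma 3.58.1 (voom), other scalings and filters, the fit without the block and leaving out each pair were alternatives.

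Ratios within a pair carry exact binomial intervals, which cover counting error only. Lengths and overlaps came from GENCODE vM21, promoters from RefSeq GRCm38.p6. The 36 genes, the classes and the other lists were chosen with earlier results of these data known. By rule, genes called or averaging 2 CPM and those of the arterial and lymphatic classes were described singly, with at most 6 called genes of each other list, Kdr, Flt1 and Flt4; Acvrl1, Angpt1, Angpt2, Foxc2, Reln, Nr2f2, the 3 collagen genes and others named as such were added after their values were seen.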

Additional observations from a re-analysis of the deposited data

How the results depend on the processing

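Without the replicate block, edgeR's test called 0 of the 36 genes (smallest adjusted p 0.943) and 0 of all genes, and DESeq2 called 1 of the 36. With the replicate number as a term, DESeq2 called 27, limma-voom 26, RLE scaling in edgeR 25, total-count scaling 26, no low-count filter 27 (116 higher and 386 lower over all genes) and a minimum of 1 CPM in 3 libraries 24. Leaving out 1 pair at a time gave 0 to 29 called genes, 0 without pair 3 and 10 without pair 2, and 9 of those 10 were among the 25; the 25 were all among the 29 without pair 1. Over all genes, the calls without pairs 1, 2 and 3 were 140, 9 and 3 higher and 533, 119 and 41 lower. The median of the 36 stayed between -0.93 and -0.71 under these alternatives. Without the block the log2 fold change of Sharpin was -1.49 and did not pass in edgeR's test (adjusted p = 0.272), but passed in DESeq2 (-1.49, adjusted p = 1.3e-12). The one fitted value of the 36 genes to change sign was Prox1, at 0.011 without pair 1 and from -0.41 to 0.011 over the fits that leave out 1 pair. The number of intervals holding the median ran from 20 without pair 1 to 34 without the block. Low counts limit Lyve1, Mmrn1, Prox1 and Tal1: the lowest count of any of the 36 in a library was 4, for Lyve1. The cause of these changes was not tested.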

Other observations

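Counts were also set against those of Cdh5 in the same library. Cdh5 itself fell, so a gene that fell less comes out higher in the mutant by this measure. For every 100 counts of Cdh5, Pecam1 had 75.3, 74.4 and 75.7 counts in wild type and 71.1, 68.7 and 65.2 in Sharpin-cpdm, lower in the mutant in each pair within a narrow range over all 6 libraries. Eng, which fibroblasts also make, had 89.0, 71.6 and 50.6 in wild type and 128, 108 and 77.3 in Sharpin-cpdm, higher in the mutant in each pair. Apln was higher in the mutant in each pair as well, at 63.3, 19.1 and 58.1 against 72.0, 34.0 and 60.2, and lowest in pair 2 in both genotypes. In CPM, Apln was lower in the mutant in each pair, with log2 ratios of -0.30, -0.03 and -0.60. Aplnr was lower in the mutant in each pair, at 5.04, 12.4 and 1.92 in wild type against 4.04, 6.84 and 1.08. These 4 genes were picked after their values were seen, and no test was made.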
